A study of Mus musculus with 27 samples.

Results

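The phase II conjugation enzymes of mouse liver cells were followed from freshly isolated hepatocytes through hepatocyte organoids (HepOrgs) to periportal assembloids. Members were all genes of the count table whose symbol names a UDP-glucuronosyltransferase of families 1 to 3 (Ugt1a, Ugt2a, Ugt2b, Ugt3a), a glutathione S-transferase of the alpha, kappa, mu, omega, pi or theta class (Gsta, Gstk, Gstm, Gsto, Gstp, Gstt) or a sulfotransferase (Sult). The rule used names and no measured value, and found 64 of 21848 genes, with 21 Ugt, 22 Gst and 21 Sult genes. The 27 libraries came from 9 conditions with 3 libraries each. All were bulk RNA from mice. For 26 the labels give C57BL/6 wild type. Fresh hepatocyte replicate 3 is titled wild type but carries an MDR2-het genotype label and no strain, and its title was followed. Fresh hepatocytes had no culture. HepOrgs were grown from primary hepatocytes to passage 2 in HM-Wnt, the hepatocyte medium with growth factors, nicotinamide, a GSK3 inhibitor (CHIR), a TGF-β receptor inhibitor (A83-01) and WNT3a conditioned medium. They were then either kept in HM-Wnt or moved to MM, and were taken after 1 week (7 days) or 2 weeks (14 days). MM, the paper's minimal medium, holds Wnt conditioned medium and a ROCK inhibitor without the growth factors, nicotinamide, CHIR or A83-01. Both media shared one basal medium, which contains N-acetylcysteine, and the ROCK inhibitor. Assembloids joined HepOrgs with organoid-derived cholangiocytes and portal mesenchymal cells in MM. Per the paper's methods, the cholangiocytes generally came from nuclear tdTomato reporter mice and the mesenchymal cells from Pdgfra GFP reporter mice. Homeostasis assembloids received 250 and fibrosis-like assembloids 2500 mesenchymal cells, and each was taken after 1 week (7 days) or 2.5 weeks (18 days). The labels do not say that replicates were separate animals or cultures, so p-values measure only the spread between these libraries.

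Phase II enzymes attach a polar group to drugs, hormones, bile acids and reactive products of phase I metabolism, so that these can be excreted in bile or urine. UDP-glucuronosyltransferases sit in the endoplasmic reticulum and transfer glucuronic acid from UDP-glucuronic acid. Glutathione S-transferases couple glutathione to electrophiles, mostly in the cytosol. Sulfotransferases move a sulfate group from the donor PAPS onto phenols, steroids and bile acids. Liver hepatocytes are the main site of all these reactions, and conjugates leave them through ATP-dependent exporters of the Abcc and Abcg families.

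The libraries held 30289364 to 65345685 counts in genes. One library stood apart: homeostasis replicate 2 at 1 week had 6623 genes with at least 10 counts, against 11840 to 14160 in the other 26. It had 10 members at that level, against 31 to 42 elsewhere, and its members took 0.174% of the counts, against 0.362 to 1.69%. Its 7 hepatocyte markers (Alb, Ttr, Apoa1, Apob, Hnf4a, Asgr1, Cps1) summed to 990 CPM, against 14981 and 28403 in the other homeostasis libraries of that week. CPM are counts scaled to the library's total after its adjustment by a TMM factor. Assembloid results are therefore given with and without it. Hepatocyte markers summed to 57756 to 85286 CPM in fresh hepatocytes and to 12764 to 42749 CPM in HepOrgs, so both carried the markers of their label. Of 7 cholangiocyte markers, 6 were detected in fresh hepatocytes, and their sum was 11.9 to 139 CPM there and 3535 to 14986 CPM in HepOrgs. Most of the HepOrg sum was Spp1 (3426 to 14926 CPM), while Krt19 was at 1.03 to 21.8 CPM. The paper used mice of both sexes, and sex was not part of any fit. The Y-chromosome gene Ddx3y had counts in all 27 libraries. In fibrosis-like assembloids at 1 week, 4 Y-chromosome genes summed to 11.3 CPM in the lowest library, against 116 and 120 CPM in the others.

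Of the 64 members, 46 reached 10 counts in at least 1 library, with 12 Ugt, 19 Gst and 15 Sult genes. Another 7 stayed under 10 counts everywhere, and 11 had no count in any of the 27 libraries. The 11 were 7 of the 9 Ugt1a genes, Ugt2a2, Gsto1, Gsto2 and Sult1c1. The counting limits what the zeros mean for all of these but Sult1c1, whose span overlaps no other gene of the table. Of 534 genes whose span lies wholly within another gene of the table, 524 (98.1%) were at 0 in all 27 libraries, compared with 2245 of 14414 genes (15.6%) that overlap no other gene. Alternative first exons of the Ugt1a locus (GRCm39 chromosome 1, 87983110 to 88147724) share their last exons, and the 9 entries overlap each other. The family is thus not measured gene by gene in this table, and Ugt1a1, the bilirubin-conjugating enzyme, has no usable value. Sult1a1 lies within Sgf29 yet had counts, and 93.6% of the span of Gstt3 is shared with Gm20441, so reads of the partners may be mixed. Near-identical relatives are also uncertain, since 80.8% of 100-base windows of Gsta1 transcripts occur in other Gsta genes. That share was 62.6% for Gstp2, 47.3% for Gstp1, 41.9% for Gsta5, 33.3% for Gsta2, 24.2% for Ugt2b38, 18.2% for Ugt2b5, 17.8% for Gstm2 and 13.8% for Gstm3.

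Promoter windows from the RefSeq table of build GRCm38.p6 (250 bases before to 50 bases after a start site) covered 55 of the 64 members in 65 windows. Those of 4 members with different behaviour are shown, because their short motifs can be read beside the values that follow. Capitals mark GTTAAT, which is part of the site of the hepatocyte factor HNF1, TTGCNNAA, a C/EBP core, and TGACNNNGC, the antioxidant response element core, each on either strand.
Ugt2a3 (chr5:87337146-87337445, minus strand): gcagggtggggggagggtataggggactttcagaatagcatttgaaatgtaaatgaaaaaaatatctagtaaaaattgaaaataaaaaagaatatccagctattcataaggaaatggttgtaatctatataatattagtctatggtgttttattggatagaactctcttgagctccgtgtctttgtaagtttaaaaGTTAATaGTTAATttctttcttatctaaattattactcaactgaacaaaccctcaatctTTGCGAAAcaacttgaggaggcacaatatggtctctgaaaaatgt
Sult2a8 (chr7:14446538-14446837, minus strand): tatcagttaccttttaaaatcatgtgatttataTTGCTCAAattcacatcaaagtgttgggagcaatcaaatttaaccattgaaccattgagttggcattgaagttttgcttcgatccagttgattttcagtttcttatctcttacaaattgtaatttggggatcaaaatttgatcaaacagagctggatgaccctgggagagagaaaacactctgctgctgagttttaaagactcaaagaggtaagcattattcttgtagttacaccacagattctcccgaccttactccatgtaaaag
Gsta3 (chr1:21240335-21240634, plus strand): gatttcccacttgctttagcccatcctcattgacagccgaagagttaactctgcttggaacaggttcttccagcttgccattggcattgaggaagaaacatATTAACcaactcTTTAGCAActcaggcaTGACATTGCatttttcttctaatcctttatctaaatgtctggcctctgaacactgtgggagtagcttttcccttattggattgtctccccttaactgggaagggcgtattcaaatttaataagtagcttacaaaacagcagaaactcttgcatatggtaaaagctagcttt
Gstm5 (chr3:107895604-107895903, plus strand): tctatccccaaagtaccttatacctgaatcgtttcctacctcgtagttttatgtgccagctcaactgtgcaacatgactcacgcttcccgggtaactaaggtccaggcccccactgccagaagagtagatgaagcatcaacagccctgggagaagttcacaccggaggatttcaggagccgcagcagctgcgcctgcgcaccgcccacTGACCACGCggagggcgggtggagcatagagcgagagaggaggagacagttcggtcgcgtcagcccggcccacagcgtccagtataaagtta
Each printed window had 1 exact match on its own chromosome in GRCm39, the build of the counts, at 87485005 to 87485304 for Ugt2a3, 14180463 to 14180762 for Sult2a8, 21310559 to 21310858 for Gsta3 and 107802920 to 107803219 for Gstm5. Sult2a8 has another window (chr7:14438502-14438801), not printed, that held none of these motifs. The HNF1 motif occurred in 14 of the 65 member windows (21.5%), compared with 7.10% of all 32851 windows of the table. The C/EBP core occurred in 13 member windows (20.0%), compared with 10.8% of all windows. The antioxidant response element core occurred in 3 (4.62%, Gsta3, Gstm5 and Gstm7), compared with 12.4% of all windows. These matches describe letters and not binding.

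Fresh hepatocytes set the reference levels. Per kilobase of exon, Gstp1, the main pi class transferase, had the highest mean at 2524 ± 1794 CPM per kilobase (SD, n = 3), followed by the mu class enzyme Gstm1 at 1268 ± 151. Their ranges overlapped, since the lowest Gstp1 value (1373) lay below the highest Gstm1 value (1443), and Gstp1 was far higher in replicate 2 than in the other fresh libraries. Ugt2b5, which conjugates steroids and drugs, came next at 978 ± 206 CPM per kilobase and overlapped neither Gstm1 nor the gene below it. Ugt2b36 (469 ± 99.7), Gstp3 (465 ± 404), the bile acid sulfotransferase Sult2a8 (260.4 ± 37.6), Ugt2b1 (245 ± 69.3) and Ugt3a2 (216 ± 35.7) followed, and each of these overlapped its neighbour in the order. Members took 1.32 to 1.47% of all counts in fresh hepatocytes, of which Gst genes took 0.707 to 0.926%, Ugt genes 0.418 to 0.525% and Sult genes 0.112 to 0.144%.

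**Figure D1:**
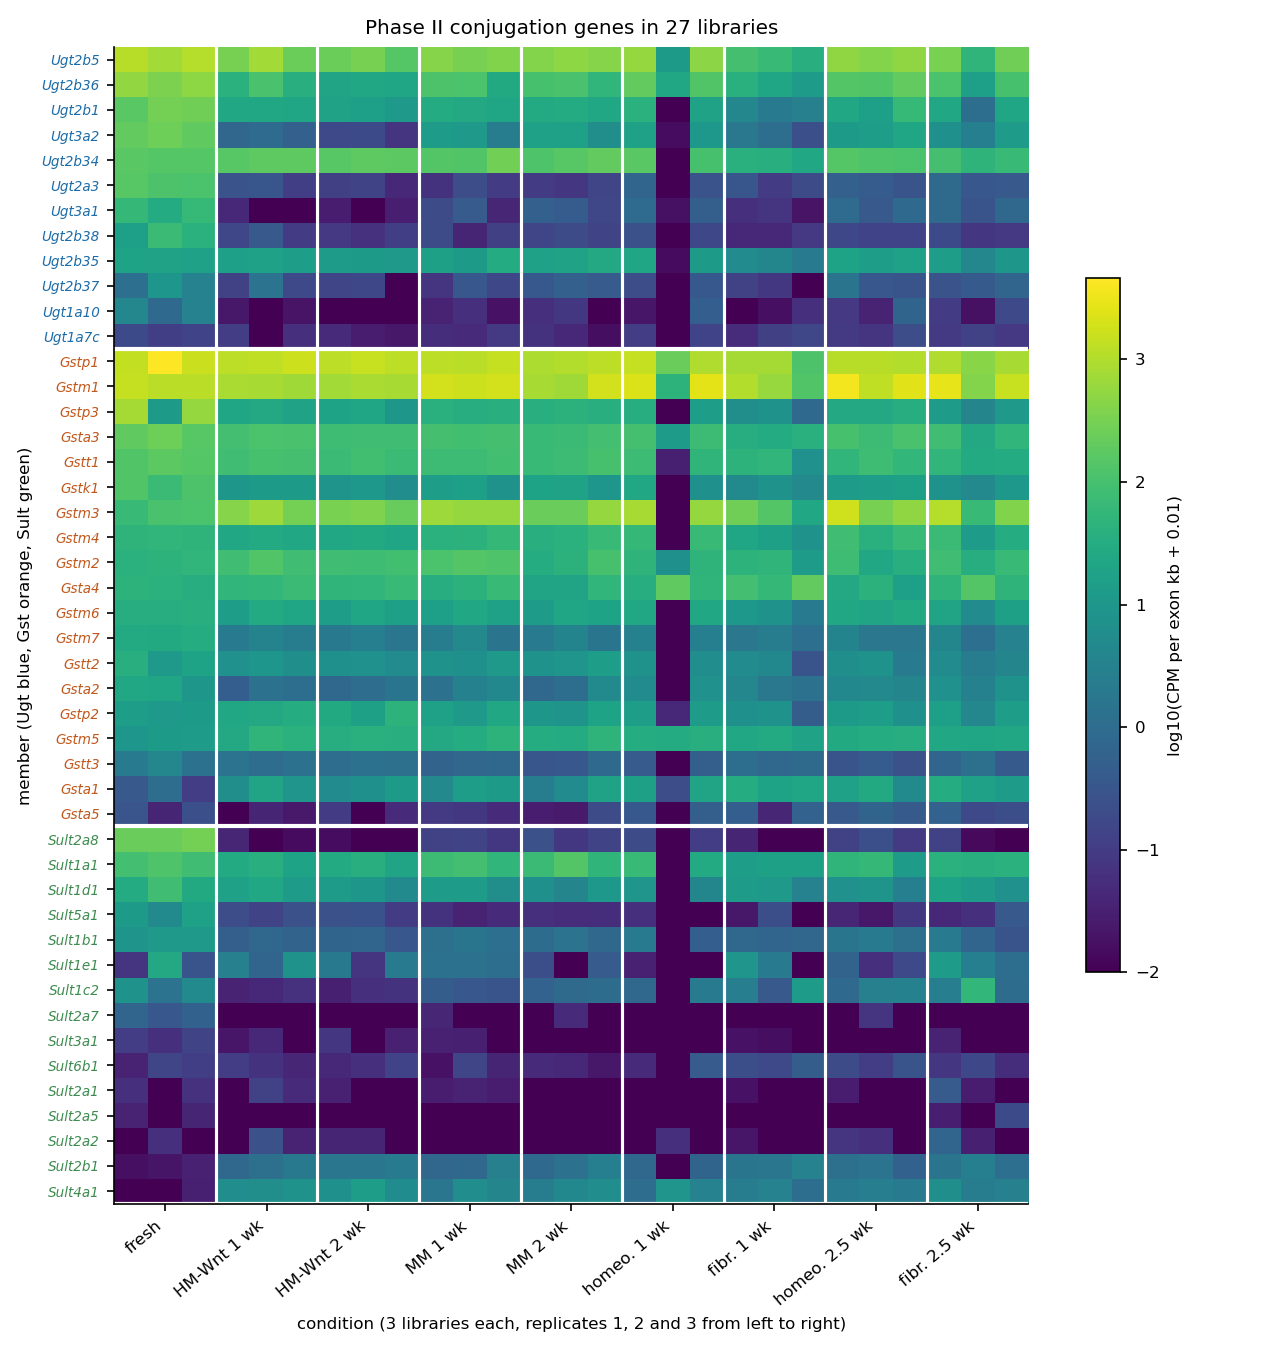
Level of the 46 measured members (rows, grouped by enzyme class) in each of the 27 libraries (columns, 3 replicates per condition, replicates left to right). Colour gives CPM per kilobase of exon on a log10 scale, with a small constant added. Fresh hepatocytes hold the highest levels of most Ugt and Sult rows, a small set of rows is brighter in HepOrgs, and homeostasis replicate 2 at 1 week is dark in most rows.

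Against fresh hepatocytes, most measured members were lower in HepOrgs. Of 41 members that could be tested, 26 were lower and 7 higher in HM-Wnt HepOrgs at 1 week, 28 lower and 6 higher in HM-Wnt at 2 weeks, 25 lower and 6 higher in MM at 1 week, and 26 lower and 5 higher in MM at 2 weeks (edgeR quasi-likelihood test, Benjamini-Hochberg adjusted p under 0.05 over all genes). In those comparisons 49.7%, 51.8%, 42.8% and 39.7% of all genes tested were called. By direction the background was 24.8%, 25.7%, 21.3% and 20.0% lower and 24.9%, 26.1%, 21.5% and 19.7% higher. The median log2 fold change of the tested members was -1.45, -2.05, -1.42 and -1.75 in that order, and that of all genes tested lay between -0.01 and 0.03. The 4 comparisons share the fresh libraries. Altogether 23 members were lower in each of the 4 (9 Ugt, 8 Gst and 6 Sult), 5 were higher in each (Gsta1, Gstm3, Gstm5, Sult2b1, Sult4a1), and Gsta4, Gstm1, Ugt2b34 and Ugt2b35 were called in none. Of all 13396 genes tested, 14.3% were lower and 15.1% higher in each of the 4. The filter used fresh and HepOrg libraries together, so a gene high on 1 side could pass through that side alone. Among the 23, Sult2a7 and Ugt1a10 (67 and 631 fresh counts) held at most 2 and 11 counts in a HepOrg group. They could therefore only come out lower. Among the 5, Sult4a1 and Sult2b1 held 2 and 5 fresh counts and could only come out higher. Gsta1, with 17, 32 and 4 counts in the fresh libraries, could not have passed through the fresh side alone either. In bulk RNA, fewer cells of a type and less RNA per cell cannot be told apart. On the deposited TPM scale, where the median fold change of all genes lay 0.37 to 0.64 (log2) above that of the counts, limma called 15 lower and 8 higher, 17 lower and 9 higher, 15 lower and 7 higher, and 16 lower and 5 higher of 36 members. The calls of Gstm6, Gstt1 and Gstt2 were lost there in every HepOrg group and that of Gsta3 in all but MM at 2 weeks.

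**Figure D2:**
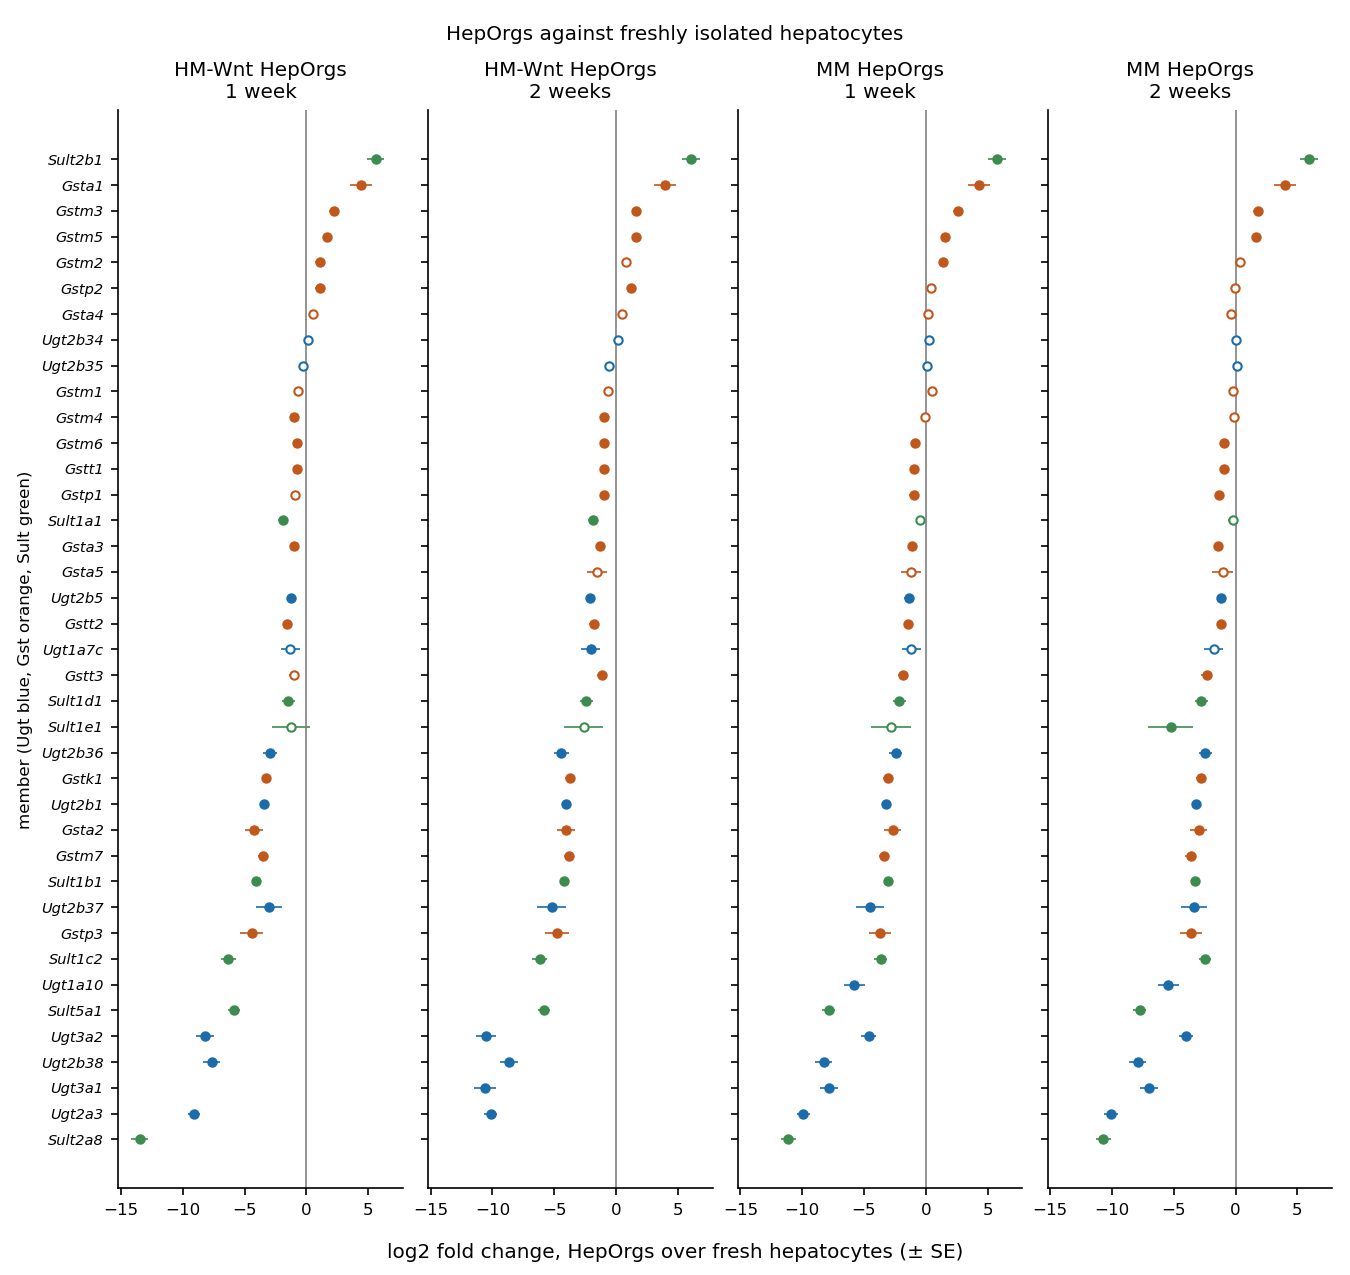
Log2 fold change of 39 members against fresh hepatocytes in the 4 HepOrg groups (points, with bars of 1 SE, filled where the edgeR adjusted p is under 0.05), 13 points with at most 3 counts in a group left out. Most Ugt and Sult members lie left of 0 in all 4 groups, and Gsta1, Gstm3, Gstm5 and Sult2b1 lie right of it.

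Among the glucuronosyltransferases, 9 of 12 tested were lower in each HepOrg group, Ugt1a7c passed as lower in HM-Wnt at 2 weeks, and none was higher by edgeR. Since the Ugt1a entries overlap, Ugt1a10, which is counted among the 9, and Ugt1a7c are not described further. Ugt2a3, which glucuronidates bile acids, was at 358, 282 and 272 CPM in fresh hepatocytes and at 0.0826 to 0.749 CPM in the 12 HepOrg libraries. No HepOrg library came near the fresh range, with a log2 fold change of -9.09 ± 0.52 (SE) in HM-Wnt at 1 week (adjusted p = 7.56e-08) and -10.06 ± 0.54 in MM at 2 weeks (adjusted p = 9.12e-08). Ugt2b38 went from 30.0, 135 and 76.3 CPM in fresh hepatocytes to 0.0541 to 0.708 CPM (log2 fold change -7.65 ± 0.68, adjusted p = 1.90e-06 in HM-Wnt at 1 week and -7.90 ± 0.69 in MM at 2 weeks). The Ugt3a enzymes use sugars other than glucuronic acid. Ugt3a1 was at 154, 82.6 and 163 CPM in fresh hepatocytes and at 0 to 1.42 CPM in HepOrgs. Its 3 counts in HM-Wnt at 1 week, against 12985, correspond to a level 4866-fold lower (95% counting interval 1665 to 23597). Ugt3a2 was at 728, 933 and 692 CPM in fresh hepatocytes, 2.67, 3.45 and 1.9 in HM-Wnt at 1 week and 0.623, 0.652 and 0.22 at 2 weeks, but at 48.5, 39.4 and 8.48 in MM at 1 week and 62.8, 63.0 and 23.1 at 2 weeks. It was lower than fresh in all 4, with log2 fold changes of -8.22 ± 0.73, -10.49 ± 0.81, -4.63 ± 0.62 and -4.0 ± 0.60 (adjusted p = 1.83e-06, 5.19e-07, 7.03e-05 and 0.000191).

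The abundant Ugt2b genes fell less. Ugt2b36 was at 1740, 1134 and 1603 CPM in fresh hepatocytes and at 65.2 to 347 CPM in HM-Wnt and 88.2 to 385 CPM in MM (log2 fold change -2.96 ± 0.55, adjusted p = 0.000677 in HM-Wnt at 1 week, -4.43 ± 0.59 at 2 weeks, -2.44 ± 0.54 in MM at 1 week and -2.43 ± 0.54 at 2 weeks). Ugt2b1 was at 499, 896 and 802 CPM in fresh hepatocytes and 33.7 to 92.6 CPM in HepOrgs (log2 fold change -3.45 ± 0.26, adjusted p = 5.27e-07 in HM-Wnt at 1 week and -3.17 ± 0.26 in MM at 2 weeks). Neither overlapped its fresh range. Ugt2b5 was at 2821, 1853 and 2630.5 CPM in fresh hepatocytes, 779.8, 1852 and 609 in HM-Wnt at 1 week, 601, 801 and 369 at 2 weeks, 1058, 805 and 990.3 in MM at 1 week and 1029.8, 1240 and 1082 at 2 weeks. It was lower in each (-1.20 ± 0.37, -2.07 ± 0.38, -1.38 ± 0.38 and -1.14 ± 0.37, adjusted p = 0.0165, 0.000595, 0.00993 and 0.0262), although HM-Wnt replicate 2 at 1 week all but reached the lowest fresh value. That call was lost at 1 week in HM-Wnt without HM-Wnt replicate 1 (-1.0, adjusted p = 0.0717), HM-Wnt replicate 3 (-0.91, adjusted p = 0.0663) or fresh replicate 1 (-1.09, adjusted p = 0.0524). It was lost at 2 weeks in MM without any 1 of the MM libraries or fresh replicates 1 or 3 (-1.01 to -1.22, adjusted p = 0.0519 to 0.0842), and on the TPM scale in both MM groups (-0.74 ± 0.31 and -0.61 ± 0.31). Ugt2b34 and Ugt2b35 lie in the same chromosome 5 cluster (GRCm39, 87037626 to 87572062 for the 7 Ugt2b genes), with Ugt2b1 between them. Ugt2b34 was at 700.4, 651 and 655 CPM in fresh hepatocytes and 549 to 1237 in HepOrgs (log2 fold changes 0.13 ± 0.26, 0.13 ± 0.26, 0.23 ± 0.26 and 0.02 ± 0.26, adjusted p = 0.491 to 0.958). On the TPM scale Ugt2b34 was called higher in HM-Wnt at 2 weeks (0.94 ± 0.33, adjusted p = 0.0213). Ugt2b35 was at 81.9, 78.4 and 73.5 CPM in fresh hepatocytes and 50.2 to 134 in HepOrgs. Its log2 fold changes were -0.25 ± 0.26, -0.58 ± 0.26, 0.12 ± 0.26 and 0.15 ± 0.26 (adjusted p = 0.438, 0.0763, 0.729 and 0.671), and in HM-Wnt at 2 weeks all 3 libraries (55.4, 52.5 and 50.2 CPM) lay below the fresh range.

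The sulfotransferases showed the widest range. As a class they took 0.112 to 0.144% of counts in fresh hepatocytes, 0.0116 to 0.0177% in HM-Wnt and 0.0216 to 0.0392% in MM. Sult2a8, which sulfates bile acids, was at 1133, 1135 and 1444 CPM in fresh hepatocytes, 0.145, 0 and 0.0216 in HM-Wnt at 1 week, 0.0249, 0 and 0 at 2 weeks, 0.569, 0.649 and 0.34 in MM at 1 week and 1.15, 0.352 and 0.644 at 2 weeks. It had 115850 counts in the fresh libraries and 1 in those of HM-Wnt at 2 weeks, a level 144680-fold lower with a 95% counting interval of 25966 to 5714400. The log2 fold change was -13.48 ± 0.68 in HM-Wnt at 1 week, -11.11 ± 0.61 in MM at 1 week and -10.68 ± 0.60 in MM at 2 weeks (adjusted p = 4.49e-08, 7.53e-08 and 1.01e-07). Sult5a1, a little characterised member, was at 74.2, 31.8 and 106 CPM in fresh hepatocytes, 0.55 to 1.55 in HM-Wnt and 0.162 to 0.353 in MM (log2 fold change -5.83 ± 0.49, -5.83 ± 0.49, -7.86 ± 0.54 and -7.76 ± 0.54). Its groups did not overlap and MM lay below HM-Wnt. Sult1b1, which acts on thyroid hormones, went from 24.5, 32.9 and 34.3 CPM to 0.963 to 4.46 CPM and was lower in each group. Sult1c2 was at 18.3, 3.45 and 12.1 CPM in fresh hepatocytes, 0.0498 to 0.138 in HM-Wnt and 0.700 to 2.35 in MM, and was also lower in each (-6.31 ± 0.60, -6.19 ± 0.59, -3.64 ± 0.52 and -2.49 ± 0.49). Sult1a1, the phenol sulfotransferase, was at 283, 379 and 250.2 CPM in fresh hepatocytes, 58.9 to 112 in HM-Wnt and 153 to 428 in MM. It was lower in HM-Wnt (log2 fold change -1.87 ± 0.38, adjusted p = 0.00130 at 1 week, -1.87 ± 0.38 and 0.00120 at 2 weeks), and in MM its range overlapped that of fresh hepatocytes (-0.45 ± 0.37 and -0.22 ± 0.37, adjusted p = 0.351 and 0.671).

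Sult1d1, which sulfates catecholamines in the mouse, was at 75.7, 212 and 70.4 CPM in fresh hepatocytes and 9.55 to 59.4 in HepOrgs. It was lower in each group, from -1.45 ± 0.51 in HM-Wnt at 1 week (adjusted p = 0.0308) to -2.78 ± 0.54 in MM at 2 weeks. At 1 week in HM-Wnt the call was lost without fresh replicate 2 (-0.72, adjusted p = 0.216), HM-Wnt replicate 1 (-1.42, adjusted p = 0.0779) or HM-Wnt replicate 3 (-1.24, adjusted p = 0.106). Fresh replicate 2 also differed from the other fresh libraries in Sult1e1, the estrogen sulfotransferase (0.0815, 32.6 and 0.365 CPM), and its endothelial and immune markers summed to 183 and 455 CPM, against 39.8 and 156 CPM (endothelial) and 49.2 and 194 CPM (immune) in replicates 1 and 3. The part of these cells in the result was not tested. Sult2b1 and Sult4a1 moved the other way. Sult2b1, the cholesterol sulfotransferase, was at 0.0272, 0.0426 and 0.0912 CPM in fresh hepatocytes and 2.86 to 11.6 in HepOrgs (log2 fold change 5.60 ± 0.70, 6.05 ± 0.71, 5.77 ± 0.70 and 5.95 ± 0.70, adjusted p = 3.20e-05 at the highest). Sult4a1, known mainly from brain, was at 0, 0 and 0.0608 CPM in fresh hepatocytes and 4.61 to 38.8 in HepOrgs. From its 2 counts in fresh libraries it was 875-fold (95% counting interval 242 to 7233) and 1156-fold (320 to 9553) higher in HM-Wnt at 1 and 2 weeks, and 455-fold (126 to 3759) and 542-fold (150 to 4479) higher in MM. Every HepOrg library lay above every fresh library for both genes, at low levels.

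The glutathione S-transferases kept the largest share of counts, with 0.707 to 0.926% in fresh hepatocytes and 0.428 to 1.07% in HepOrgs. Of 19 tested, 8 were lower and 3 higher in all 4 HepOrg groups. Gstm1 was at 3629, 2967 and 2972 CPM in fresh hepatocytes, 2228, 2059 and 1786 in HM-Wnt at 1 week, 1923, 2226 and 2117 at 2 weeks, 4631, 4236 and 4706 in MM at 1 week and 2066, 1787 and 4747 at 2 weeks. Its log2 fold changes against fresh (-0.69 ± 0.30, -0.63 ± 0.30, 0.48 ± 0.30 and -0.18 ± 0.29) did not pass (adjusted p = 0.0681, 0.0897, 0.204 and 0.664), but on the TPM scale it was called higher in MM at 1 week (1.11 ± 0.34, adjusted p = 0.0142). Gstm3, of the same class, was at 114, 191 and 199 CPM in fresh hepatocytes and 391 to 1161 in HepOrgs (log2 fold change 2.24 ± 0.40, 1.65 ± 0.39, 2.64 ± 0.40 and 1.84 ± 0.39, adjusted p = 0.00314 at the highest). Gstm5 was at 12.3, 15.2 and 17 CPM in fresh hepatocytes and 32.6 to 64.2 in HepOrgs (1.71 ± 0.27, 1.65 ± 0.27, 1.55 ± 0.26 and 1.64 ± 0.27). No HepOrg library reached down to the fresh range of either gene. The 7 Gstm genes lie together on chromosome 3 (GRCm39, 107803137 to 107952210), and 2 of them were higher and 2 lower in all 4 groups. Gstm7, between Gstm5 and Gstm3, fell from 122, 115 and 133 CPM to 6.14 to 19.1 CPM (log2 fold change -3.48 ± 0.41, -3.79 ± 0.41, -3.40 ± 0.40 and -3.64 ± 0.41).

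The pi and alpha classes also split. Gstp3 was at 1847, 28.4 and 1405 CPM in fresh hepatocytes and 23.4 to 104 in HepOrgs, so fresh replicate 2 lay within the HepOrg range. It was lower in each group (log2 fold change -4.41 ± 0.93, -4.77 ± 0.94, -3.70 ± 0.90 and -3.61 ± 0.89, adjusted p = 0.00159, 0.000945, 0.00504 and 0.00596), but on the TPM scale only in HM-Wnt at 2 weeks (-2.66 ± 1.10, adjusted p = 0.0444). Gstp1 was at 2242, 7496 and 2627 CPM in fresh hepatocytes and 1495 to 2757 in HepOrgs. It was called lower in HM-Wnt at 2 weeks (log2 fold change -0.94 ± 0.37, adjusted p = 0.0483), MM at 1 week (-0.98 ± 0.37, adjusted p = 0.0468) and MM at 2 weeks (-1.30 ± 0.37, adjusted p = 0.0139). Without fresh replicate 2 those values were -0.14, -0.20 and -0.49 and passed in none (adjusted p = 0.602, 0.479 and 0.0839). The call at 2 weeks in HM-Wnt and the call at 1 week in MM were also lost without any 1 of their HepOrg libraries (adjusted p = 0.0710 to 0.127), and the call at 2 weeks in MM without MM replicate 1 (adjusted p = 0.0512). On the TPM scale Gstp1 turned to 0.12 in HM-Wnt at 2 weeks. Gsta3, which conjugates aflatoxin epoxide in mice, was at 1086, 1450.2 and 868 CPM in fresh hepatocytes and 387 to 655 in HepOrgs (log2 fold change -0.96 ± 0.20, -1.27 ± 0.20, -1.08 ± 0.20 and -1.40 ± 0.20). Gsta1 was at 0.462, 1.36 and 0.122 CPM in fresh hepatocytes and 3.21 to 25.3 in HepOrgs (log2 fold change 4.45 ± 0.89, 3.95 ± 0.87, 4.29 ± 0.88 and 4.02 ± 0.87, adjusted p = 0.00262 at the highest). Reads of Gsta1 and Gsta2 may be exchanged, and Gsta2 went from 51.5, 46.0 and 21.3 CPM to 1.02 to 11.1 CPM. Gstk1, the mitochondrial kappa class enzyme, fell from 209, 114 and 196 CPM to 9.41 to 31.2 CPM, without overlap.

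In the promoter windows, the C/EBP core stood in 9 of 25 windows of members lower in all 4 HepOrg groups (36.0%) and in 0 of 5 windows of those higher in all 4. The HNF1 motif stood in 5 of 25 (20.0%) and 0 of 5, and the antioxidant response element core in 2 of 25 (8.0%) and 1 of 5 (20.0%), the latter Gstm5. These shares describe small and related sets, and no test was made on them.

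**Figure D3:**
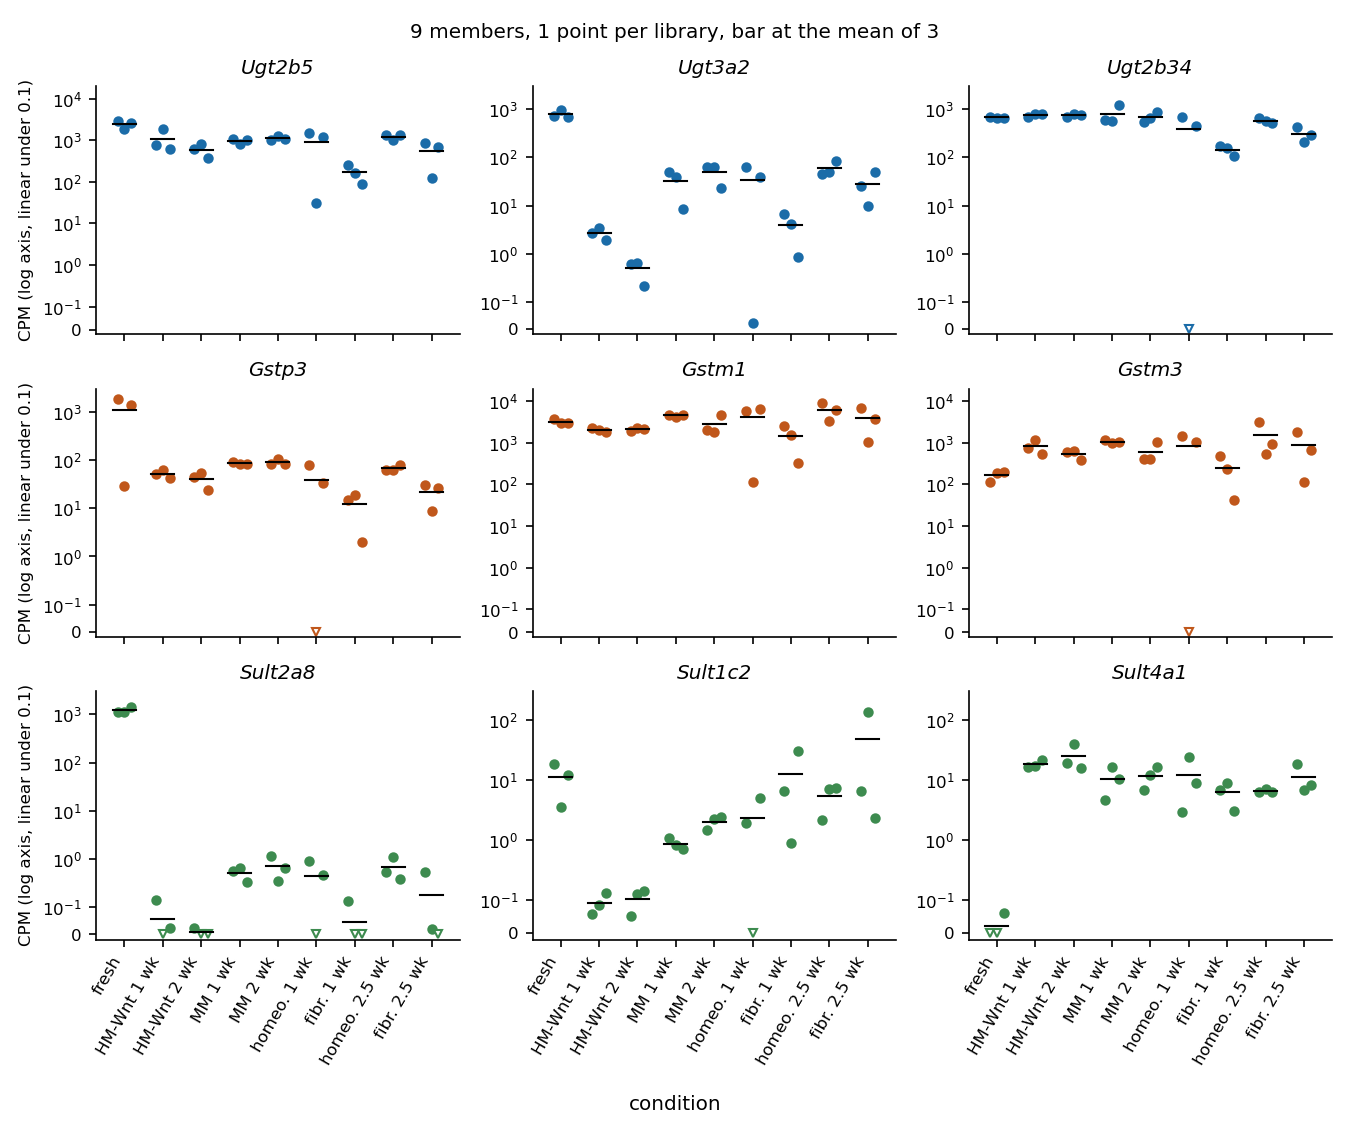
CPM (log axis) of Ugt2b5, Ugt3a2, Ugt2b34, Gstp3, Gstm1, Gstm3, Sult2a8, Sult1c2 and Sult4a1 in every library by condition (points, with the group mean as a bar, open triangles for libraries at 0). Sult2a8 stands far higher in fresh hepatocytes and near or below 1 CPM in HepOrgs, Gstm3 and Sult4a1 stand higher in HepOrgs, and Ugt3a2 lies lower in HM-Wnt than in MM.

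Other genes of the conjugation pathway gave a mixed picture, against a background of 20.0 to 25.7% of all genes lower and 19.7 to 26.1% higher in these 4 comparisons. For the supply of glutathione, 1 of 5 genes was higher in every HepOrg group, namely the cystine importer Slc7a11. It was at 0.109, 0 and 0.0304 CPM in fresh hepatocytes and 35.2 to 216 in HepOrgs. Slc7a11 passed the filter through the HepOrg libraries alone and could therefore only come out higher. Gclm, the modifier subunit of the first enzyme of glutathione synthesis, was lower in all but MM at 2 weeks (-1.5 ± 0.34, -0.90 ± 0.33 and -1.71 ± 0.34, with -0.17 ± 0.33 in MM at 2 weeks). Of 4 sulfate donor genes, Papss2, which makes PAPS, was lower in each group (-1.36 ± 0.21 to -1.57 ± 0.21), Bpnt1 was also lower in both HM-Wnt groups and Bpnt2 was higher in HM-Wnt at 2 weeks. Of 3 genes for UDP-glucuronic acid, Slc35d1, its carrier into the endoplasmic reticulum, was lower in 3 of the 4 groups (-1.67 ± 0.22, -1.81 ± 0.22 and -0.79 ± 0.22). Among 14 other conjugating enzymes, 10, 10, 8 and 9 were lower and 1, Mgst2, was higher in HM-Wnt at 1 and 2 weeks and MM at 1 and 2 weeks. The methyltransferase Inmt went from 281, 371 and 275 CPM to 0 to 4.46 CPM, and the bile acid amidating enzyme Baat had log2 fold changes of -3.02 ± 0.51, -4.05 ± 0.54, -1.60 ± 0.48 and -1.28 ± 0.48. Of 9 receptors and factors listed as known to act on such genes, 6, 6, 4 and 4 were lower and 2 higher. Their action on the members was not tested. The higher ones were Ahr (3.60 ± 0.28 to 2.15 ± 0.27) and Nfe2l2 (1.03 ± 0.17 to 1.42 ± 0.17), and the lower ones included Cebpa (-3.38 ± 0.20 to -2.34 ± 0.19) and the drug receptor Nr1i3 (-4.16 ± 0.46 to -2.26 ± 0.42). Among 4 exporters Abcc4 was higher in each group, Abcc2 (-0.54 ± 0.18 to -0.93 ± 0.18) and Abcg2 were lower in each, and Abcc3 was lower in HM-Wnt at 1 week.

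The second question was how the change of medium affected the enzymes. In MM, several members that were low in HM-Wnt were higher, with Ugt3a2 and Sult1c2 at both times. The filter used the 12 HepOrg libraries together, so a gene high in 1 medium could pass through that medium alone. Sult1c2, Sult2a8 and Ugt3a1 held at most 6, 5 and 3 counts in any HM-Wnt library and passed through MM alone. They could therefore only come out higher in MM. At 1 week 3 of 37 tested members were higher and 1 lower in MM, where 2.98% of all genes were called (1.76% higher and 1.22% lower), and at 2 weeks 9 were higher and 2 lower, where 11.5% were called (6.84% higher and 4.61% lower). As the mean of both times, 11 were higher and 3 lower, against 21.5% of all genes (11.5% higher and 10.0% lower). Ugt3a2, whose values are given above, was higher at 1 week (log2 fold change 3.58 ± 0.63, adjusted p = 0.0197) and at 2 weeks (6.51 ± 0.74, adjusted p = 0.000849), without overlap of the media. Sult1c2 was at 0.058, 0.0832 and 0.13 CPM in HM-Wnt and 1.08, 0.811 and 0.700 in MM at 1 week (log2 fold change 2.68 ± 0.43, adjusted p = 0.0120). At 2 weeks it was at 0.0498, 0.125 and 0.138 CPM in HM-Wnt and 1.44, 2.18 and 2.35 in MM (3.74 ± 0.45, adjusted p = 0.00103). Sult1a1 was at 85.8, 108 and 59.8 CPM in HM-Wnt and 217, 428 and 153 in MM at 2 weeks (log2 fold change 1.66 ± 0.39, adjusted p = 0.0206), and at 1 week was at 84.9, 112 and 58.9 CPM and 234, 282 and 163 CPM (1.41 ± 0.39, adjusted p = 0.0680). Its HM-Wnt and MM values did not overlap at either time. Ugt2b36 at 2 weeks was at 65.2, 75.1 and 70.0 CPM in HM-Wnt and 322, 351 and 166 in MM (log2 fold change 2.01 ± 0.56, adjusted p = 0.0395). Gstp3 (1.17 ± 0.25), Gstm4 (0.93 ± 0.22) and Ugt2b1 (0.88 ± 0.19) were also higher at 2 weeks. The rare transcripts Sult2a8 (81 counts against 1, 81.5-fold higher, 95% counting interval 14.2 to 3256) and Ugt3a1 (3.62 ± 0.94, adjusted p = 0.0312) were higher as well, but stayed at 0.352 to 1.15 and 0.392 to 1.42 CPM in MM. Sult5a1 moved the other way, at 1.28, 0.832 and 1.49 CPM in HM-Wnt and 0.353, 0.162 and 0.24 in MM at 1 week (log2 fold change -2.05 ± 0.46, adjusted p = 0.0389) and -1.93 ± 0.46 at 2 weeks (adjusted p = 0.0222). Gstt3 was lower at 2 weeks (-1.22 ± 0.34) and Gstp2 in the mean of both times (-0.95 ± 0.28).

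Replicate numbers paired the HepOrg libraries, so the fit with the replicate number as a block stands beside these counts. With the block, 8 members were higher and 2 lower at 1 week (background 9.48%), 12 higher and 4 lower at 2 weeks (background 19.6%) and 12 higher and 5 lower in the mean (background 28.9%), and no call above was lost. At 1 week the block added Sult1a1 (1.42 ± 0.16, adjusted p = 0.00187), Sult2a8 (2.53 ± 0.62), Gstm1 (1.15 ± 0.30), Sult1b1 (1.01 ± 0.27) and Gstp3 (0.73 ± 0.19) as higher and Gstp2 (-0.72 ± 0.20) as lower. At 2 weeks it added Ugt2b5 (1.00 ± 0.31), Gstk1 and Sult1b1 as higher and Gsta4 and Gstp2 as lower. The unblocked calls were fragile. At 1 week the count was 4 with all libraries, 0 without MM replicate 1, 1 without HM-Wnt replicates 2 or 3 or MM replicate 2, and 2 without MM replicate 3. Gstm4 and Sult5a1 were lost without any 1 of the 6 libraries (adjusted p = 0.0603 to 0.140), Sult1c2 without MM replicate 1 (2.49, adjusted p = 0.0598), and Ugt3a2 without MM replicates 1 or 2 or HM-Wnt replicates 2 or 3 (3.16 to 3.79, adjusted p = 0.0544 to 0.0739). At 2 weeks the count was 11 with all libraries, 5 without HM-Wnt replicates 1 or 3, 6 without MM replicate 1 and 4 without MM replicate 2. Ugt2b36, Ugt3a1 and Gstt3 were lost there without any 1 library except MM replicate 3, while Ugt3a2, Sult1c2 and Sult2a8 kept their calls in each. Sult1a1 was lost without HM-Wnt replicates 1 or 3 or MM replicate 2 (1.12 to 1.68), Ugt2b1 without HM-Wnt replicate 3 or MM replicates 1 or 2 (0.71 to 0.84), Sult5a1 without HM-Wnt or MM replicates 1 or 2 (-1.72 to -1.99) and Gstp3 without MM replicate 2 (1.03). In the mean of both times Gstp2 was lost without HM-Wnt replicate 3 at 1 week, HM-Wnt replicates 1 or 3 at 2 weeks, or MM replicates 1 or 2 at either time (-0.73 to -0.98). Single omissions also lost the mean calls of Ugt2b36 (1.10 to 1.28, adjusted p = 0.0642 to 0.0919), Gstm1 (0.77 to 0.80, adjusted p = 0.0549 to 0.0593) and Ugt2b1 (0.46 and 0.48, adjusted p = 0.0541 and 0.0504). Hepatocyte markers summed to 37340 to 42749 CPM in HM-Wnt and 12764 to 27300 CPM in MM at 1 week, and to 23080 to 25236 and 12806 to 18157 CPM at 2 weeks, and their part in the result was not tested.

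**Figure D4:**
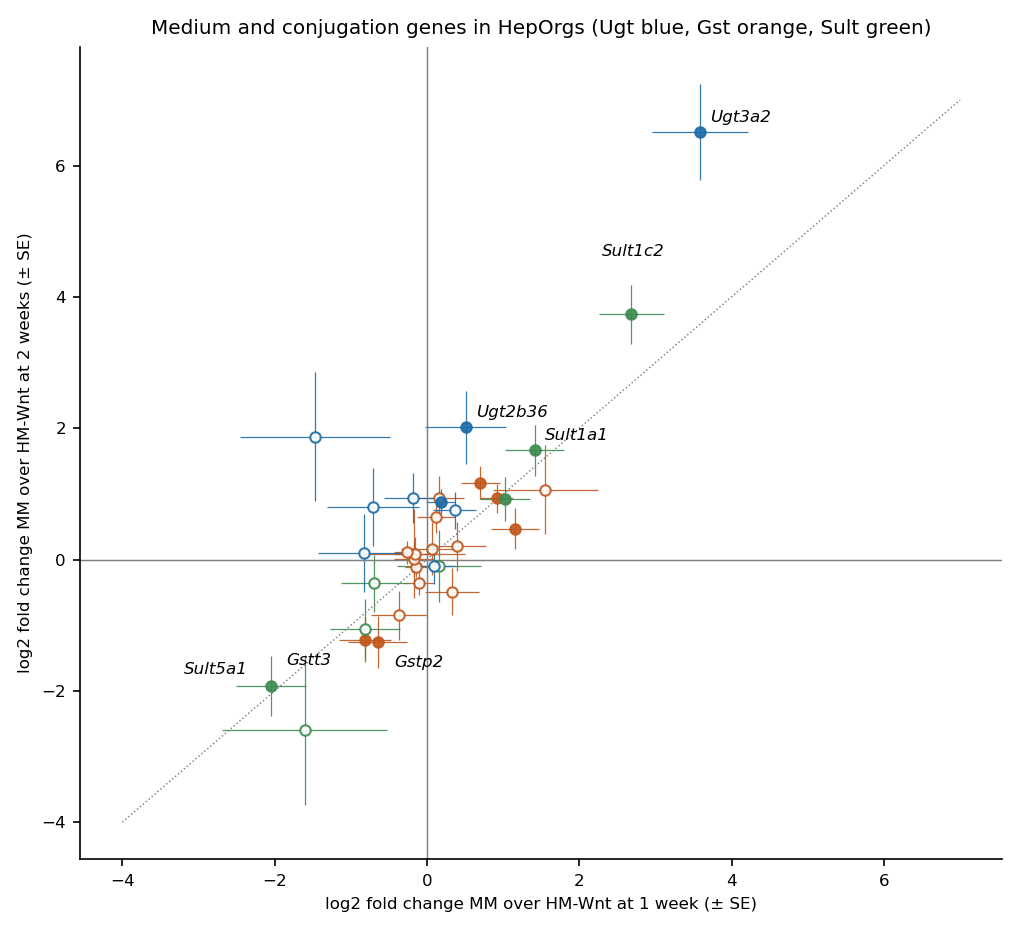
Log2 fold change of MM against HM-Wnt HepOrgs at 1 week (horizontal axis) and 2 weeks (vertical axis) for 35 members, by enzyme class, with 2 members left out because a group held at most 3 counts. Ugt3a2 and Sult1c2 lie far to the upper right and Sult5a1 to the lower left.

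The pathway genes were also compared between media, in the mean of both times, where 11.5% of all genes were higher and 10.0% lower in MM. There 7 of 13 other conjugating enzymes were higher in MM and none lower, among them Inmt, Glyat (2.19 ± 0.20), Baat (2.09 ± 0.37) and Nat8 (1.68 ± 0.42). Of 9 receptors and factors, 4 were higher (Nr1i3 1.36 ± 0.25, Nr1i2 1.19 ± 0.16, Ppara 1.10 ± 0.26, Cebpa 0.52 ± 0.13) and Ahr was lower (-1.04 ± 0.12). The exporters Abcg2 (1.63 ± 0.28) and Abcc3 (1.35 ± 0.17) and the carrier Slc35d1 (1.20 ± 0.16) were higher, 1 of 5 glutathione genes (Gss, 0.38 ± 0.09) was higher, and of 4 sulfate donor genes Bpnt1 was higher and Bpnt2 lower.

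Culture time had no called effect on any member. Between 2 weeks and 1 week 0 of 37 members passed in HM-Wnt (0 of all genes passed, edgeR). There 4 members had an unadjusted p under 0.05, all Ugt genes and all lower at 2 weeks (Ugt3a2 -2.28 ± 0.65, Ugt2b36 -1.47 ± 0.55, Ugt2b5 -0.86 ± 0.38 and Ugt2b1 -0.59 ± 0.19, adjusted p = 0.556), and DESeq2 called 1 lower. In MM 0 members passed either (0.0154% of all genes), with 2 at an unadjusted p under 0.05 (Gstm2 -1.07 ± 0.36 and Sult1c2 1.18 ± 0.41) and 0 by DESeq2. The medium effect itself changed between the times for 0 members by edgeR and by DESeq2. By edgeR 3 had an unadjusted p under 0.05, namely Ugt3a2 (2.93 ± 0.85), Ugt2b1 (0.70 ± 0.27) and Ugt2b37 (3.33 ± 1.39), with an adjusted p of 0.671 for Ugt3a2.

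The third question was how the amount of mesenchyme affected the enzymes in assembloids. With all 12 assembloid libraries, fibrosis-like and homeostasis assembloids differed in 0 of 41 tested members at 1 week, 0 at 2.5 weeks and 0 in the mean of both times (edgeR, which called 0 of all genes), with 4, 0 and 3 members at an unadjusted p under 0.05. DESeq2 called 2, 0 and 1. Homeostasis replicate 2 at 1 week was set apart partly by its low member levels, and leaving it out alters the homeostasis side only. Fibrosis-like replicate 3 at 1 week and replicate 2 at 2.5 weeks, with hepatocyte markers at 1573 and 6627 CPM, were kept. The counts that follow rest on an omission chosen from these data. Without homeostasis replicate 2 at 1 week, 6 members were lower and 0 higher in fibrosis-like assembloids at 1 week, where 4.87% of all genes were lower and 3.14% higher. In the mean of both times 13 were lower (7 Ugt and 6 Gst) and 4 higher, where 13.4% of all genes were lower and 16.2% higher. The 6 were all UDP-glucuronosyltransferases. Ugt2b5 was at 1471, 31.0 and 1178 CPM in homeostasis and 247, 167 and 86.9 in fibrosis-like assembloids at 1 week, and at 1312, 1018 and 1315 and 845, 125 and 689.7 CPM at 2.5 weeks. Apart from homeostasis replicate 2, the groups did not overlap at 1 week, and at 2.5 weeks fibrosis-like replicate 2 was the lowest. The log2 fold change at 1 week was -2.43 ± 1.08 with all libraries (adjusted p = 0.349) and -2.99 ± 0.68 without that library (adjusted p = 0.0441). Ugt3a2 was at 61.8, 0.0205 and 38.5 CPM in homeostasis and 6.78, 4.08 and 0.844 in fibrosis-like assembloids at 1 week, and at 44.4, 50.7 and 83.0 and 25.3, 9.84 and 48.7 CPM at 2.5 weeks (-3.67 ± 0.80 at 1 week without replicate 2, adjusted p = 0.0441, and -3.09 ± 1.58 with it, adjusted p = 0.405). Ugt2b34 was at 696, 0 and 451 CPM and 172, 154 and 107 CPM at 1 week (-2.0 ± 0.34 without replicate 2, adjusted p = 0.0399, and -1.41 ± 1.63 with it). The others were Ugt3a1 (-3.81 ± 0.76), Ugt2b36 (-2.77 ± 0.71) and Ugt2b35 (-2.10 ± 0.49), with an adjusted p of 0.0473 at most.

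**Figure D5:**
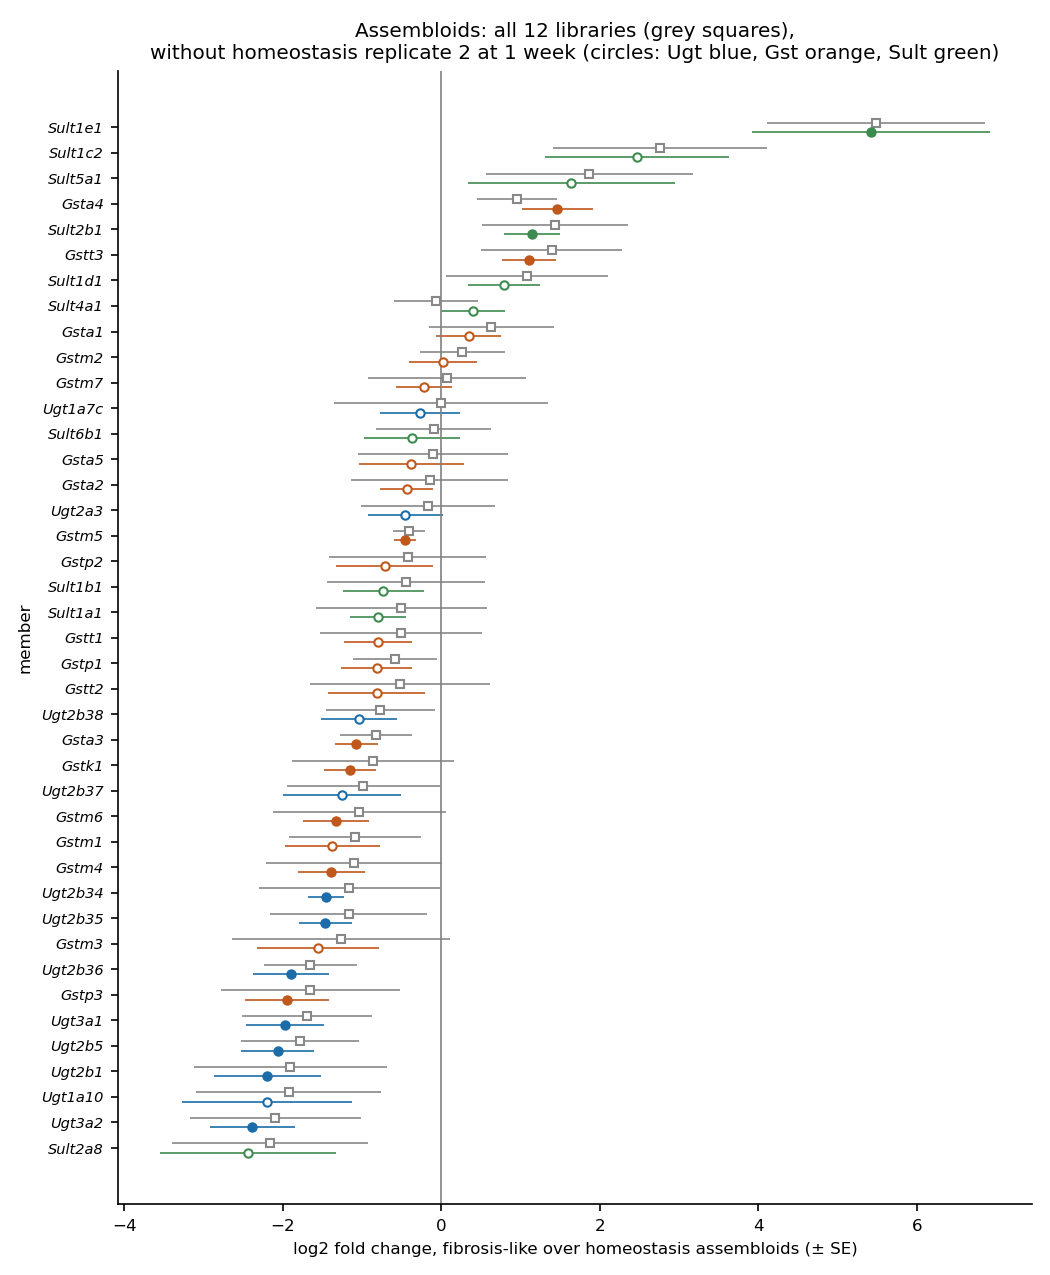
Log2 fold change of fibrosis-like against homeostasis assembloids, mean of 1 and 2.5 weeks, for 41 members. Grey squares use all 12 libraries, circles leave out homeostasis replicate 2 at 1 week and are filled where the edgeR adjusted p is under 0.05. Ugt members lie left of 0 with and without that library, and Sult1e1 lies farthest right, a value that rests on a homeostasis group with 1 count at 1 week.

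Members of the other classes entered in the mean of both times without that library. Sult1e1 was at 11.1, 2.83 and 0 CPM in fibrosis-like and 0.0283, 0 and 0 in homeostasis assembloids at 1 week, and at 17.1, 3.42 and 1.34 and 0.793, 0.0621 and 0.212 CPM at 2.5 weeks. All 3 fibrosis-like libraries exceeded the homeostasis ones at 2.5 weeks, and at 1 week replicate 3 was at 0. The mean log2 fold change was 5.42 ± 1.5 without homeostasis replicate 2 at 1 week (adjusted p = 0.0267) and 5.48 ± 1.37 with it (adjusted p = 0.0959), and DESeq2 called it with all libraries (adjusted p = 4.03e-05). Homeostasis assembloids at 1 week held 1 count of it, so the size of that fold change depends on the prior count. At 2.5 weeks they held 42, 3 and 7 counts. Sult1e1 could thus not have passed the filter through the homeostasis side alone, which also limits its direction and its p-values. Gsta4, which conjugates the lipid peroxidation product 4-hydroxynonenal, was at 91.3, 509 and 139 and 249.8, 161 and 543 CPM in homeostasis and fibrosis-like assembloids at 1 week and 72.9, 119 and 42.4 and 135, 393 and 133 CPM at 2.5 weeks (1.46 ± 0.45 without that library, adjusted p = 0.0360, 0.96 ± 0.51 with it, adjusted p = 0.357). Sult2b1 (1.14 ± 0.35) and Gstt3 (1.11 ± 0.34) were higher as well. Gst members that were lower included Gstp3 (-1.94 ± 0.53), Gstm4 (-1.39 ± 0.42), Gstk1 (-1.15 ± 0.33) and Gsta3 (-1.07 ± 0.27), and no sulfotransferase was lower. On the TPM scale with all libraries limma called 4 higher and 0 lower in the mean, where the median of all genes lay 0.52 above that of the counts. Change of the effect between 1 and 2.5 weeks was called for 0 members with 0 at an unadjusted p under 0.05, and time itself for 0 with 1 at that level (Ugt3a1).

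Marker levels moved with these values. Portal mesenchyme markers (9 genes) summed to 711 to 6191 CPM in fibrosis-like assembloids at 1 week and 1318 to 5131 CPM at 2.5 weeks, against 151 to 2226 and 204 to 299 CPM in homeostasis assembloids. Hepatocyte markers summed to 9728, 14219 and 1573 CPM in fibrosis-like and 28403, 990 and 14981 CPM in homeostasis assembloids at 1 week, and to 20613, 6627 and 25914 against 21304, 21571 and 20197 CPM at 2.5 weeks. In the mean without homeostasis replicate 2 at 1 week, 9 of 9 mesenchyme and 5 of 7 cholangiocyte markers were higher and 3 of 7 hepatocyte markers lower. Krt19, a cholangiocyte keratin, was highest in 3 libraries, namely homeostasis replicate 2 at 1 week (1521 CPM), fibrosis-like replicate 3 at 1 week (932 CPM) and fibrosis-like replicate 2 at 2.5 weeks (1633 CPM), against at most 248 CPM in the other 9. Those libraries also held the highest Gsta4 values of their groups and the lowest Ugt2b5, Ugt2b34 and Gstm1 values of their groups. Sult1c2 was at 6.37, 133 and 2.34 CPM in fibrosis-like assembloids at 2.5 weeks and 6.44, 0.892 and 30.7 at 1 week, highest in 2 of those 3 libraries, but at 0 in homeostasis replicate 2. The part of the cell mixture in these results was not tested.

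Compared with MM HepOrgs of the same week, 0 of 41 members passed in homeostasis assembloids (edgeR, 0 of all genes, 2 members at an unadjusted p under 0.05), and DESeq2 called Sult1e1 lower, with 1.63, 1.7 and 1.38 CPM in MM HepOrgs and 0.0283, 0 and 0 in these assembloids. Without homeostasis replicate 2 the count was still 0, with 4 members at an unadjusted p under 0.05 and 0.0270% of all genes called. In fibrosis-like assembloids 0 members passed as well, while 0.751% of all genes did. There 6 members had an unadjusted p under 0.05, and DESeq2 called Sult1c2 higher (3.81 ± 1.41, adjusted p = 0.0472) and Ugt2b5 lower (-2.54 ± 0.87, adjusted p = 0.0301). By edgeR these were 3.79 ± 1.67 (adjusted p = 0.211) and -2.51 ± 0.91 (adjusted p = 0.134). Both comparisons share the MM HepOrg libraries.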

How the data were processed

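Bulk RNA was extracted with the PicoPure kit, and libraries were made by SMARTseq2 with Nextera chemistry. The sources used here do not state whether strand was used in counting. Per the paper's methods, the authors used STAR to align reads to GRCm39, and featureCounts to assign reads to annotated features. The deposited count column holds whole numbers per gene. The deposited TPM column is the count divided by a length column and scaled to a fixed total. For 80.8% of matched genes that length came within 5% of the gene's span with its introns, so TPM was used only as an alternative scale. CPM was computed here from the counts with TMM scaling over all libraries used, and levels between genes were set per kilobase of GENCODE exon.

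Of 37 libraries in the table, 27 matched a sample title, and 10 were not used. Of 21850 rows, 2 reporter rows were left out. edgeR 4.0.16 in R 4.3.3 (TMM scaling, the filterByExpr filter at count 10 and total 15, quasi-likelihood test, prior count 2) was run over all genes with Benjamini-Hochberg adjustment. HepOrg media and times were fitted on 12 libraries, fresh comparisons on 15, assembloids on 12, and assembloids against MM HepOrgs of the same week on 18. Folds of a group with at most 3 counts come from the counts with a 95% counting interval, and with no counts from a floor of 3 over the group. These intervals cover counting error only. Alternatives were RLE size factors, DESeq2 1.42.0, limma 3.58.1 on log2(TPM + 1) for genes reaching 1 TPM in 3 libraries, a stricter filter (10 counts in each library), none, 1 joint fit of the 27 libraries, a block for replicate number, and each library left out in turn. The model scripts were tested on simulated data.

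Same-numbered HepOrg libraries deviated together from their group means, with correlations above 0.1 in 18 of 18 pairs (0.127 to 0.503), compared with 2 of 36 pairs of other numbers. The pairing is taken from the data, since the labels give only the numbers. Blocked results of the HepOrg media therefore stand beside the unblocked ones.

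Named members are the 4 with the highest mean TPM in each class together with the called members of each comparison that rose most or fell most (at most 5 a direction, with at least 10 counts in every library of a group), and any member called for a change of an effect with time. Sult1e1, Sult1b1, Gstm7, Gstk1, Gsta2, Gsta3, Gsta4, Ugt2b35 and other members outside this rule were singled out after their values were seen. The members, pathway lists and marker lists were chosen with earlier results of these data known.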

Additional observations from a re-analysis of the deposited data

How the results depend on the processing

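Of 95 named values past the threshold, all kept their direction and call with DESeq2 and RLE size factors. All 27 libraries in 1 fit kept 47 and lost 48, no filter kept 93 of 95, at least 10 counts in every library kept 44 of 46, and limma on log2(TPM + 1) kept 69 of 81, with 11 weaker and Gstp1 against fresh in HM-Wnt at 2 weeks reversed to 0.12. Leaving out 1 library kept 557 of 642 values. Counts of called members moved as follows. DESeq2 called 9 for MM against HM-Wnt at 1 week, 1 for time in HM-Wnt, 2 for fibrosis-like against homeostasis assembloids at 1 week and 1 in the mean, and 1 (homeostasis) and 2 (fibrosis-like) against MM HepOrgs. All 27 libraries in 1 fit called 19, 21, 15 and 14 against fresh, 0, 0 and 2 between media, and 3 for the fibrosis-like mean. At least 10 counts in every library, which tests fewer members, called 19, 20, 17 and 17 against fresh and 1, 6 and 9 between media. limma called 2, 6 and 8 between media and 4 for the fibrosis-like mean. Other causes were not tested. Leaving out 1 library gave 27 to 32, 30 to 33, 29 to 31 and 26 to 30 calls against fresh, 0 to 3, 4 to 15 and 10 to 17 between media, 0 to 6 and 0 to 17 for fibrosis-like against homeostasis assembloids at 1 week and in the mean, and 0 to 0 in the others.

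With the replicate block, 10 members were called between media at 1 week in place of 4. Of the 95 named values past the threshold, over all comparisons, the block kept 93 and lost Gstp1 against fresh in HM-Wnt at 2 weeks (-0.84, adjusted p = 0.0599) and in MM at 1 week (-0.88, adjusted p = 0.0605). The calls it added between media are given with the media. In the fit with fresh libraries, which holds the HepOrg pairs, 19 of 30 same-numbered pairs correlated above 0.1. In assembloids 6 of 18 did and in assembloids with MM HepOrgs 11 of 45, and these numbers were not taken as pairs.

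The counting leaves most Ugt1a genes without values, Gsta and Gstp genes share part of their sequence, and with 3 libraries per group, or 2 where homeostasis replicate 2 was left out, a member that missed the threshold is not shown to be unchanged.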
